A study of Mus musculus with 2 samples.

Results

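The genes described here are the 10 enzymes that remove superoxide and peroxides in mouse lung: the superoxide dismutases Sod1, Sod2 and Sod3, catalase (Cat), the peroxiredoxins Prdx1, Prdx2 and Prdx6, and the glutathione peroxidases Gpx1, Gpx2 and Gpx3. They were chosen by symbol, and all 10 were found among the 37315 gene identifiers counted in each library. Messenger RNA was sequenced from lung tissue of C57BL/6 mice, an inbred laboratory strain, in 1 library labelled control and 1 labelled as exposed to PM2.5, the fine fraction of airborne particulate matter. The titles end in 12W, an abbreviation left unexplained in the labels. Sex, age, dose, route and the number of animals pooled into a library are also unstated. With 1 library per group there is no replicate check and no test, so each difference below is one between these 2 libraries. The 95% intervals cover counting error only.

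Superoxide is turned into hydrogen peroxide by the superoxide dismutases, and hydrogen peroxide is then split or reduced to water by catalase, the glutathione peroxidases and the peroxiredoxins. The enzymes work in separate places: SOD1, PRDX1, PRDX2, PRDX6, GPX1 and GPX2 mainly in the cytosol, SOD2 in the mitochondrial matrix, catalase in peroxisomes, and SOD3 and GPX3 outside cells. SOD3 is bound to the extracellular matrix and is known to be abundant in lung and blood vessel walls, GPX3 is the secreted glutathione peroxidase of plasma, and PRDX6 is prominent in alveolar type 2 and club cells, where it also acts as a phospholipase on surfactant lipids. Several of these genes are known targets of NRF2, the transcription factor that binds the antioxidant response element.

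Total counts were 62788045 (control) and 57435027 (PM2.5). Levels between the libraries are given as CPM, the count per 1000000 of the library size after TMM scaling (trimmed mean of M values). Levels between genes are given as TPM, the count divided by the length of each gene's exons and rescaled to a sum of 1000000 in each library. TPM holds no TMM scaling, so a ratio of TPM between the libraries can differ from that of CPM. Markers of lung cells were present in both: the surfactant gene Sftpc reached 14437 and 18643 CPM (control and PM2.5), and the type 1 cell gene Ager 2381 and 1695 CPM. The 14518 genes whose mean level reached 1 CPM are called measured here, and their median log2 ratio, PM2.5 over control, was -0.09. Ratios were lower for longer genes, with medians of 0.33 in the tenth with the shortest exonic length and -0.39 in the tenth with the longest. Libraries made from whole tissue cannot tell fewer cells of a type from less RNA per cell.

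All 10 enzymes passed the filter of 1 CPM. By the rule used for a change, a ratio of at least 1.5-fold with an interval that leaves out a ratio of 1, Gpx2 was higher and Sod3 was lower in the PM2.5 library, and 8 of the 10 met neither direction. Over all genes measured, 14.9% were higher and 19.1% lower by the same rule, 34% in all, so 1 of 10 in each direction is not more than is seen for genes at large. At 2-fold none of the 10 was higher or lower, against 7.25% and 6.04% of all genes, 13.3% together. At this depth the interval alone sets little apart: it left out a ratio of 1 for all 10 enzymes (7 above, 3 below) and for 83% of all genes (35% above, 48% below). The median log2 ratio of the 10 was 0.22, and their values ran from -0.95 (Sod3) to 0.72 (Gpx2). The summed level of the 10 went from 4354 to 4482 CPM, which gives a ratio of 1.03 (1.02 to 1.03). With library totals in place of TMM this ratio was 1.21, and by summed TPM it was 1.13.

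**Figure D1:**
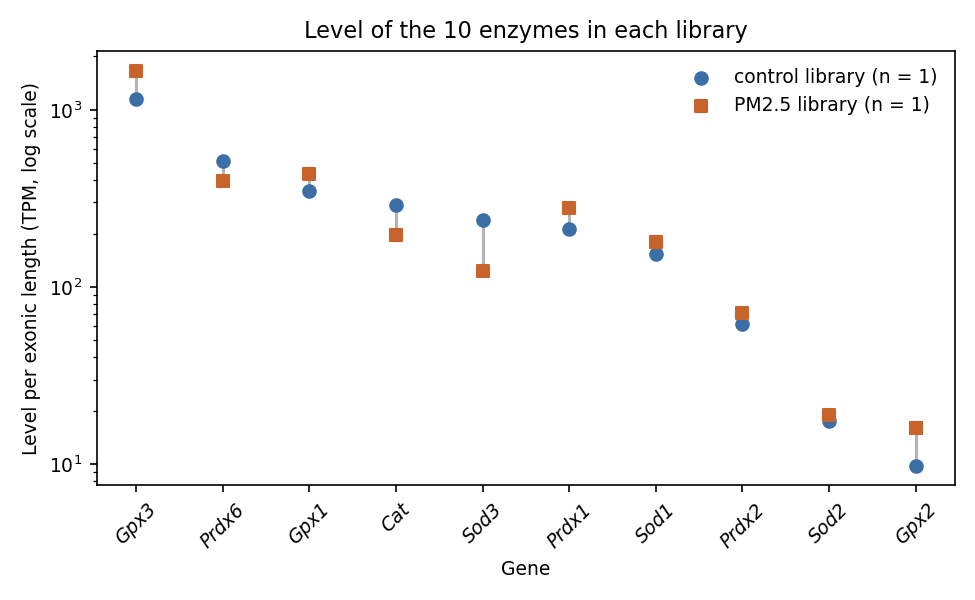
Level of each enzyme gene in TPM (log axis) in the control library (circles) and the PM2.5 library (squares), 1 library each and so without error bars. Gpx3 is the highest in both at 1151 and 1665 TPM, Gpx2 the lowest at 9.78 and 16.0 TPM, and Sod3 has the widest gap downwards.

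Promoters of 3 of the genes are shown first because they carry the DNA letters most often named for this pathway, or lack them. RefSeq promoters on GRCm38.p6 were matched for 8 of the 10 genes. Prdx6 and Sod3 were not matched. The core of the antioxidant response element, TGACNNNGC, was searched on both strands in the 250 bases before the start, and each match stands in capitals. Prdx1 (chr4:116685349-116685598, plus strand) and Sod1 (chr16:90220512-90220761, plus strand) held 1 match each, and Gpx2 (chr12:76795555-76795804, minus strand), the gene with the highest ratio of the 10, held none.
Prdx1: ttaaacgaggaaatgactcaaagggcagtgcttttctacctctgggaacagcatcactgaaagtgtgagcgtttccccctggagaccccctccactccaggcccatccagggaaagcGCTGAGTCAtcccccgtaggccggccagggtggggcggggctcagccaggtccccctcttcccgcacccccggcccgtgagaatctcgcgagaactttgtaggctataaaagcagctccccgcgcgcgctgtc
Sod1: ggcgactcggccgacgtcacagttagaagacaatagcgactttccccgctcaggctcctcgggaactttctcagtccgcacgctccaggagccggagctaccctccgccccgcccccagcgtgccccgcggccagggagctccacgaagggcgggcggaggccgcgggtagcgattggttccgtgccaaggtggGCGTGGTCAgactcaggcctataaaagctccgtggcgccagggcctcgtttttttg
Gpx2: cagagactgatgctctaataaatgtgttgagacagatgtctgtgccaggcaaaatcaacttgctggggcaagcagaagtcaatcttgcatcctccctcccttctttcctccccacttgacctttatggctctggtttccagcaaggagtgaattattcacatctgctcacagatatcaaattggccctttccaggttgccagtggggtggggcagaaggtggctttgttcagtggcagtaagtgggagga
The Prdx1 match lies 133 to 125 bases before the start and reads TGACTCAGC on the minus strand. The Sod1 match lies 56 to 48 bases before it and reads TGACCACGC there, and it overlaps a match to GCGTG, the core of the element bound by the aryl hydrocarbon receptor. In all, 2 of the 8 promoters held TGACNNNGC, against 10.2% of 32851 promoters of the same length. GCGTG was found in 4 of the 8 (Gpx1, Prdx2, Sod1 and Sod2), against 28.2% of all. A match is a string of letters in this window and not a binding site.

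The superoxide dismutases parted from one another. Sod3, the extracellular enzyme (ENSMUSG00000072941, GRCm38 chromosome 5, 52363791 to 52371418, plus strand), was read 27097 times in the control sample and 15084 times after PM2.5, or at 467 and 243 CPM. Its ratio was 0.519 (0.509 to 0.529), a level 1.93-fold lower, and 7.07% of all measured genes had a smaller ratio. Sod1, the copper and zinc enzyme of the cytosol (ENSMUSG00000022982, chromosome 16, 90220754 to 90226329, plus strand), was read 18511 and 23256 times, or at 319 and 374 CPM. Its ratio of 1.17 (1.15 to 1.19) did not reach 1.5-fold. Sod2, the manganese enzyme of mitochondria (ENSMUSG00000006818, chromosome 17, 13006846 to 13040063, plus strand), had 5299 and 6174 counts, or 91.4 and 99.3 CPM, and its ratio was 1.09 (1.05 to 1.13). Only Sod3 of the 3 met the rule, and it had the most counts of them in the control library.

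Because all 3 dismutases were read in the same library, their shares of one another do not depend on how the libraries are scaled. By TPM, with all annotated exons as the length, Sod3 made up 58.3% of the dismutase sum without exposure and 38.4% with it. Sod1 went from 37.5% to 55.7% and Sod2 from 4.26% to 5.87%. At these lengths the order of Sod3 and Sod1 was exchanged: Sod1 over Sod3 by TPM was 0.643 (control) and 1.45 (PM2.5). The difference between the libraries, 2.26-fold (2.20 to 2.32), is the same for any length used in both, while the order is not. As shares of raw counts, Sod3 took 53.2% (52.8 to 53.7) and 33.9% (33.4 to 34.3). The summed level of the family was 878 and 716 CPM, with a ratio of 0.815 (0.805 to 0.825). The share of Sod2 is low in part by construction, since its annotated exons span 10008 nt over 8 transcripts while its longest transcript has 5861 nt. With the longest transcript as the length, Sod2 had 25.6 and 27.8 TPM in place of 17.5 and 18.9, and 7.05% and 9.62% of the family. The length of Sod1 is 3970 nt by both measures, that of the longest of its 2 annotated transcripts. If a shorter transcript was read, the shares of Sod1 given here are too low and those of Sod3 too high. Counts per gene cannot tell which transcript was read.

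**Figure D2:**
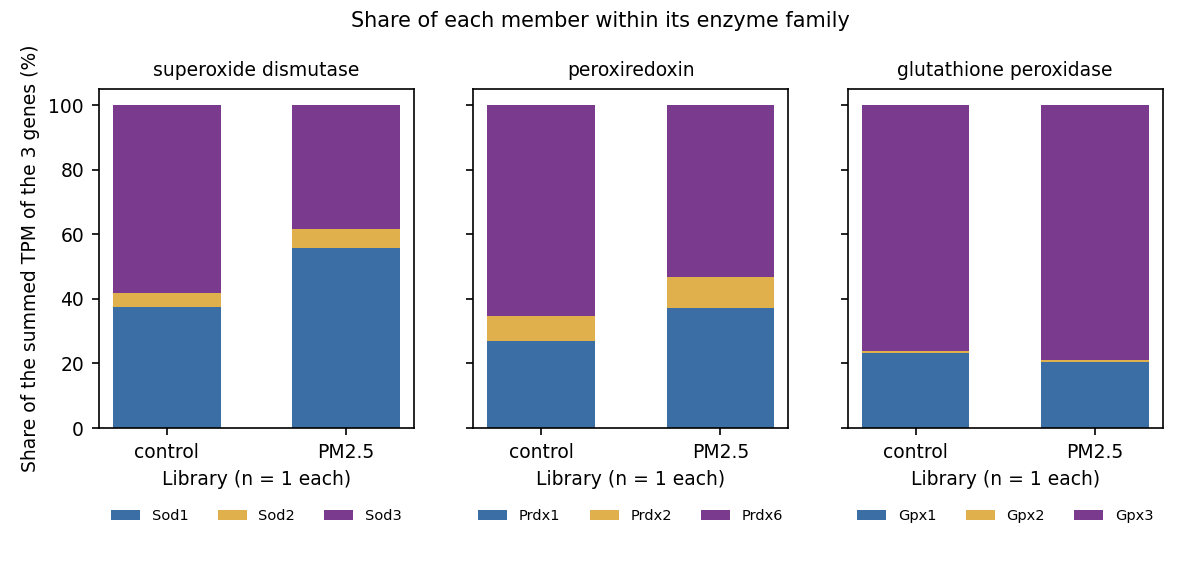
Stacked bars of the share of summed TPM (percent) held by each of the 3 members of a family, in the control and the PM2.5 library (n = 1 each). Sod3 holds 58.3% and 38.4%, Prdx6 65.2% and 53.3%, and Gpx3 76.3% and 78.8%. The shares depend on the annotated exonic lengths.

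The other extracellular enzyme went the opposite way to Sod3. Gpx3 (ENSMUSG00000018339, chromosome 11, 54902453 to 54910377, plus strand) was read 63071 times without exposure and 98522 times with it, or at 1088 and 1584 CPM. Its ratio was 1.46 (1.44 to 1.47), just under the 1.5-fold size. By counts it was the 77th gene of the control list and the 33rd of the PM2.5 list. Gpx3 counts per Sod3 count were 2.33 and 6.53, a 2.81-fold difference (2.74 to 2.87). The 2 extracellular enzymes thus share a compartment and no direction, and the median of -0.20 over this pair describes neither. The difference of the extracellular and the cytosolic median log2 ratios was -0.48, although Gpx3 by itself, at 0.54, lay above the cytosolic median of 0.27.

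Fat is known to express Gpx3, and markers of fat were counted in both libraries. All 9 fat markers were higher by the same rule, their summed level was 86.0 and 455 CPM, and none was at 0 in either library. Of 8 cardiac muscle markers, 5 were higher and 1 lower, with sums of 378 and 406 CPM. The part of these tissues in the Gpx3 value was not tested.

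Gpx1 and Gpx2, the cytosolic glutathione peroxidases, were both on the higher side. All 3 glutathione peroxidases of this set carry selenocysteine in the active site. Gpx1, the ubiquitous form (ENSMUSG00000063856, chromosome 9, 108338903 to 108340343, plus strand), had 15180 and 20302 counts, or 262 and 326 CPM, with a ratio of 1.25 (1.22 to 1.27). Gpx2, the epithelial form (ENSMUSG00000042808, chromosome 12, 76792333 to 76795554, minus strand), had 953 and 1685 counts, or 16.4 and 27.1 CPM, with a ratio of 1.65 (1.52 to 1.79). Gpx2 was the least abundant of the 10 and has the widest interval, which still lay above 1.5-fold. Summed, the family stood at 1366 and 1937 CPM, a ratio of 1.42 (1.41 to 1.43). Within the family the balance was nearly kept: Gpx3 held 76.3% and 78.8% of the TPM, Gpx1 23.1% and 20.4%, and Gpx2 0.648% and 0.758%.

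Markers of club and secretory cells of the airway are given here for comparison with Gpx2. Of 8 such markers, 7 were higher and none lower, with sums of 21896 and 34900 CPM, a ratio of 1.59. With the length trend removed 5 of the 8 were higher. Most of the sums came from Scgb1a1, whose log2 ratio came to -0.02 from 0.63 with that trend removed. Higher values were not particular to this list: all 9 fat and all 8 neutrophil markers were higher, while 6 of 8 endothelial markers were lower. The 5 basal cell markers were rare, with a sum of 3.78 and 14.3 CPM, and both of those that reached 1 CPM, Krt15 and Aqp3, were higher. The part of club, secretory and basal cells in the Gpx2 value was not tested.

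The peroxiredoxins, which reduce peroxides through a reactive cysteine, split between the abundant Prdx6 and the other two. Prdx6, the form that draws on glutathione (ENSMUSG00000026701, chromosome 1, 161240112 to 161251219, minus strand), had 74301 and 62299 counts, or 1282 and 1002 CPM. Its ratio was 0.782 (0.773 to 0.790), a difference that did not reach 1.5-fold. Prdx1 (ENSMUSG00000028691, chromosome 4, 116685544 to 116700822, plus strand), recycled by thioredoxin, had 19442 and 27549 counts, or 335 and 443 CPM, with a ratio of 1.32 (1.30 to 1.35). Prdx2, also recycled by thioredoxin and known for its abundance in red blood cells (ENSMUSG00000005161, chromosome 8, 84969587 to 84974834, plus strand), had 5724 and 7085 counts, or 98.7 and 114 CPM, with a ratio of 1.15 (1.11 to 1.19). None of the 3 met the rule by itself. Their balance differed more than their levels: Prdx1 counts per Prdx6 count were 0.262 and 0.442, a 1.69-fold difference (1.65 to 1.73), and the share of Prdx6 in the TPM of the family was 65.2% and 53.3%.

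Markers of the cells known to hold Prdx6 and Prdx2 are given here for comparison. Of the 8 alveolar type 2 markers, 2 were lower (Abca3 and Slc34a2) and none higher. Their summed levels were 25995 and 27978 CPM, a ratio of 1.08, most of it from Sftpc. The sums of the 7 genes without Sftpc were 11558 and 9335 CPM, a ratio of 0.808. Club and secretory cells, also known to hold Prdx6, went the other way. Of their 8 markers, 7 were higher and none lower, with sums of 21896 and 34900 CPM, a ratio of 1.59. Red blood cell markers were lower for 6 of 7 genes and higher for 1, with sums of 5815 and 2700 CPM and none at 0. The 1 was Hba-a2, at 3.14 (3.05 to 3.23), with 6366 and 21434 counts. Hba-a1, with 135349 and 38311 counts, was lower at 0.264. How reads were divided between these 2 alpha-globin genes was not tested. The part of these cells in the Prdx6 and Prdx2 values was not tested. Prdx2 shares exonic bases with genes on the other strand, 173 nt with Junb and 177 nt with Rnaseh2a. Their ratios were 1.85 and 0.939, and whether the counting used the strand is not given in the sources used here, so the Prdx2 value is less certain than the others. Annotated copies and pseudogenes of the members carried few counts, at most 0.052% of a member's own (Prdx2 in the control library).

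Cat, the peroxisomal enzyme that splits hydrogen peroxide without a partner (ENSMUSG00000027187, chromosome 2, 103453849 to 103485160, minus strand), was read 22851 times without exposure and 16809 times with it, or at 394 and 270 CPM. Its ratio was 0.686 (0.672 to 0.699), just short of the 1.5-fold size and second only to Sod3 among the lower values of the 10. Cat counts per Gpx1 count were 1.51 and 0.828, so the catalase transcript outnumbered that of Gpx1 in the control counts and not in the PM2.5 counts. Per exonic length Gpx1 was the higher in both, at 348 and 432 TPM against 289 and 197 TPM for Cat. Removal of the trend with exonic length brought Cat to a log2 ratio of -0.66, past the 1.5-fold size. Of 18 genes for peroxisome assembly and peroxisomal fatty acid handling, 2 were lower and none higher, with a median log2 ratio of -0.15. Among all genes 19.1% were lower and 14.9% higher by the same rule. Pex5, the import receptor for most peroxisomal matrix proteins, was lower, with a ratio of 0.592 (0.554 to 0.632). The abundant fatty acid transporter gene Abcd3 had a ratio of 0.826.

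**Figure D3:**
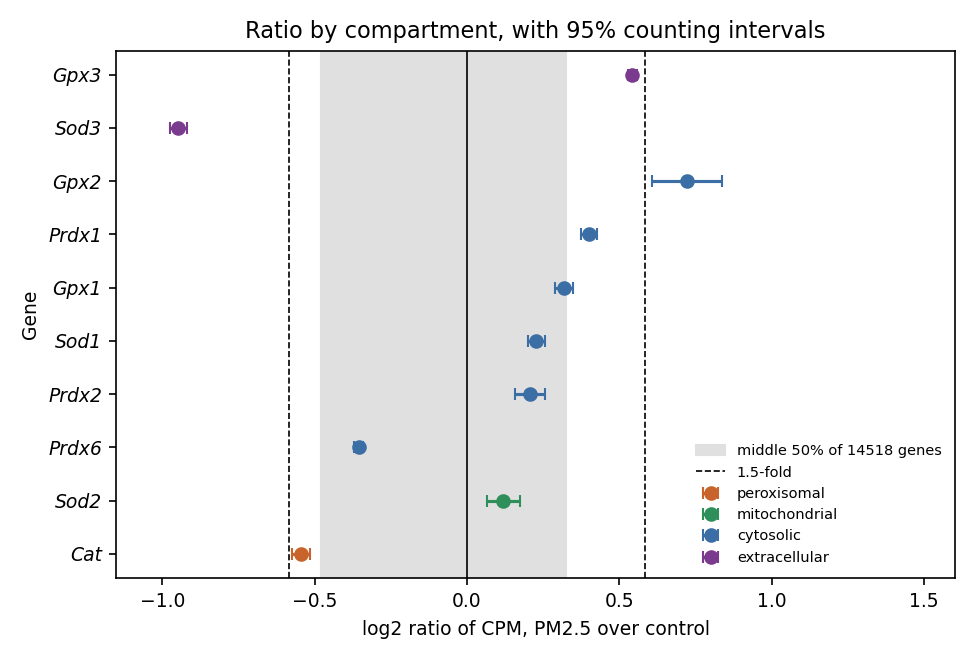
The log2 ratio of CPM, PM2.5 over control, for each enzyme, coloured by compartment, with 95% counting intervals, the middle 50% of all measured genes in grey and 1.5-fold as dashed lines. Sod3 at -0.95 and Gpx2 at 0.72 lie outside the dashed lines, Gpx3 at 0.54 and Cat at -0.54 lie just inside them, and the cytosolic genes run from -0.36 to 0.72.

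In order of TPM, the control library ran Gpx3, Prdx6, Gpx1, Cat, Sod3, Prdx1, Sod1, Prdx2, Sod2 and Gpx2, and the PM2.5 library Gpx3, Gpx1, Prdx6, Prdx1, Cat, Sod1, Sod3, Prdx2, Sod2 and Gpx2. Sod3 was in the fifth place and then the seventh, at 240 and 124 TPM, and Prdx1 in the sixth and then the fourth, at 211 and 277 TPM. Some of these places depend on the length used. With the longest transcript in place of all exons, Prdx6 stayed ahead of Gpx1 in the PM2.5 library at 644 against 500.5 TPM. By that length Prdx1 was already ahead of Sod3 in the control library, at 240 against 206 TPM, and Sod3 was in the sixth place and then the eighth. The length of Sod1 was 3970 nt by both measures, and a shorter transcript would raise its TPM and could raise its place. By compartment, the summed CPM of the 6 cytosolic genes had a ratio of 0.988 (0.981 to 0.996), with Prdx6 below 1 and the other 5 above it. The side of 1 on which this sum falls depends on the measure: the ratio was 1.06 by summed TPM, 1.16 with library totals and 1.09 with upper-quartile scaling.

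The exonic length of the 10 ran from 1441 nt (Gpx1) to 10008 nt (Sod2), and the trend of lower ratios in longer genes bears on them unequally. This length takes in all annotated exons and can exceed that of the transcript read. Prdx2, for example, has 3050 nt of exons and a longest transcript of 1612 nt. With that trend removed and the median of all genes kept, Sod3 stayed at a log2 ratio of -0.95 and Gpx2 at 0.68. Gpx1 came to 0.00 from 0.32 and Gpx3 to 0.30 from 0.54, both short genes, while Sod2, the longest, came to 0.35 from 0.12. At these lengths Sod3 and Gpx2 of the 10 met the 1.5-fold size with and without the trend, and Cat met it with the trend removed. The length of Gpx2, 3222 nt, spans its whole gene, and that of Sod1, 3970 nt, is the longest of its 2 transcripts. Removal of the trend lowers short genes more, so shorter transcripts would bring both ratios lower. Whether Gpx2 would then stay past the 1.5-fold size was not tested.

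**Figure D4:**
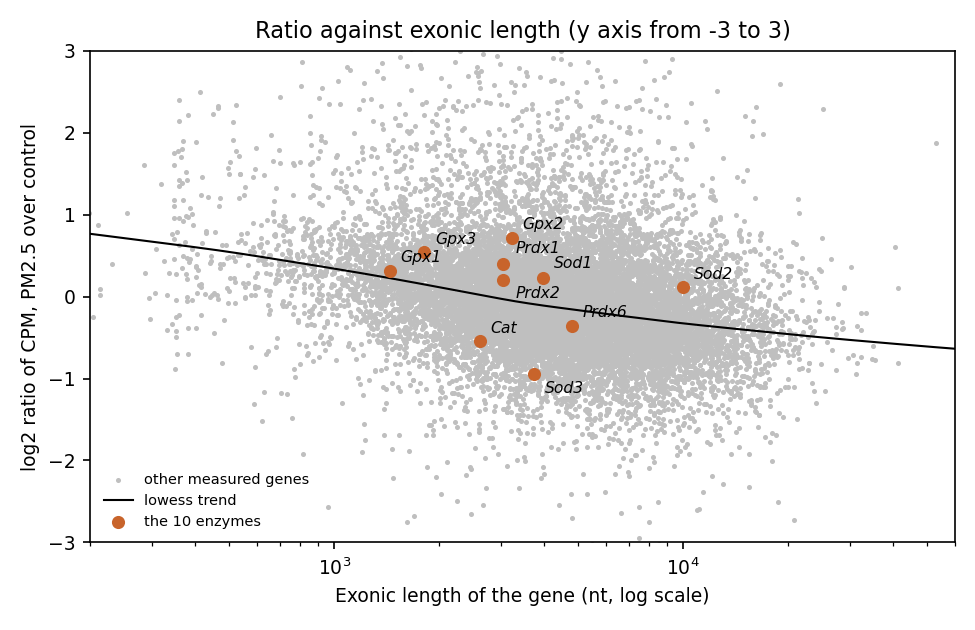
The log2 ratio of CPM against exonic length (nt, log axis) for the measured genes (grey; 138 of 14386 lie outside the axes), the lowess trend (line) and the 10 enzymes (orange). Sod3 and Cat lie below the line, Gpx1 lies close to it, and Sod2 and Gpx2 lie above it.

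Genes that the rest of the pathway needs were taken from lists chosen by function. Their counts stand against 14.9% higher and 19.1% lower among all measured genes. Of the other peroxide-removing enzymes, 6 of 9 were measured, with 1 higher, none lower and a median log2 ratio of 0.27. The 1 was Gpx4, the selenoenzyme that reduces lipid peroxides in membranes, read 15359 and 25589 times, at a ratio of 1.55 (1.52 to 1.58). With the length trend removed the log2 ratio of Gpx4 came to 0.38 from 0.63, under the 1.5-fold size, and the median of the list to -0.02. The mitochondrial peroxiredoxin Prdx3 had a ratio of 1.23 and Prdx5, found in mitochondria, peroxisomes and cytosol, 1.24. In the endoplasmic reticulum, Prdx4, Gpx8 and Gpx7 had ratios of 1.12, 1.18 and 0.759, of which Gpx7 came to a log2 ratio of -0.75, past the 1.5-fold size, with the trend removed. Gpx5 and Gpx6 had no count in either library. Prdx3 is a short gene, and its log2 ratio of 0.29 came to -0.01 with the trend removed. For comparison with the mitochondrial enzymes, the list of 10 genes for mitochondrial content, led by Vdac2 at 0.974 and Cs at 0.712, had a median log2 ratio of -0.02 with none higher and none lower.

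The thioredoxin and glutathione genes supply the electrons that the peroxidases use. Of 15, all measured, 1 was higher and 2 lower, against 14.9% and 19.1% of all genes, with a median log2 ratio of 0.21. Gsr, glutathione reductase, was higher at 2.96 (2.82 to 3.11), with 2188 and 6951 reads counted. Sesn2, a stress-induced sestrin, was lower at 0.554 (0.513 to 0.599), as was the abundant thioredoxin-binding gene Txnip at 0.629 (0.621 to 0.636). The thioredoxins Txn1 and Txn2 had ratios of 1.15 and 1.22, and the reductases that recycle them, Txnrd1 in the cytosol and Txnrd2 in mitochondria, 0.706 and 1.18. The NRF2 targets Gclc and Gclm, the 2 subunits of the first enzyme of glutathione synthesis, went apart, at 1.49 and 0.697, and neither met the rule.

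Genes that make superoxide or hydrogen peroxide went both ways, also within one source. Of 21, 15 were measured, with 5 higher and 3 lower, against 14.9% higher and 19.1% lower among all genes. Among the higher were Aox1, aldehyde oxidase, at 2.44 (2.29 to 2.59), the phagocyte oxidase subunit genes Ncf4 at 2.09 (1.91 to 2.29) and Ncf1 at 1.74 (1.65 to 1.84), and the low Noxa1, with 89 and 191 counts and a ratio between 1.55 and 2.60. Cybb and Cyba, which form the membrane core of that oxidase, had ratios of 0.716 and 1.02. The 3 lower were Xdh, xanthine dehydrogenase, at 0.522 (0.510 to 0.534), the GTPase gene Rac1 at 0.612 and Maoa, a mitochondrial monoamine oxidase, at 0.622. The paralogs Aox3 and Maob had ratios of 1.02 and 1.03. All 8 neutrophil markers were higher as well, with sums of 625 and 1817 CPM and none at 0, and their part in the values of Ncf1 and Ncf4 was not tested. Of the haem peroxidases, Pxdn, which cross-links collagen IV, was the gene measured, at 0.333 (0.325 to 0.342), while the leukocyte genes Mpo and Epx had 15 and 9 counts and 5 and 0 counts.

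Most genes for anchoring and processing of SOD3 were lower. Of 10, all measured, 7 were lower and none higher, with a median log2 ratio of -0.95, against 19.1% lower among all genes. The list was chosen with earlier results of these data known, so the count describes these genes and is no test of the list. Fbln5, the elastic fibre protein that binds SOD3, was at 0.470 (0.457 to 0.483), Furin, the protease that trims its matrix-binding tail, at 0.463 (0.448 to 0.478), and the heparan sulphate proteoglycan genes Hspg2 and Agrn at 0.376 (0.365 to 0.387) and 0.404 (0.396 to 0.413). Sdc1, an abundant cell surface proteoglycan, was at 0.915. With the trend of length removed the median was -0.84. Markers of fibroblasts and pericytes were lower for 6 of 8 genes and higher for 1, Dcn, at 2.68 (2.61 to 2.75), with sums of 4962 and 1858 CPM. Endothelial markers were lower for 6 of 8 and higher for none, with sums of 5305 and 2645 CPM, and no marker of either list was at 0. Smooth muscle markers, from a cell type known to make SOD3, had 3 higher, none lower and sums of 1136 and 1276 CPM. The part of these cell types in the Sod3 value was not tested.

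Cofactors of the enzymes gave mixed values. Of 6 measured genes for copper, zinc and manganese supply, Atp7a, the pump that loads copper into SOD3, was lower at 0.489 (0.460 to 0.519), and Atox1, the chaperone that hands copper to that pump, was higher at 1.70 (1.61 to 1.79). Atox1 is a short gene, and with the length trend removed its log2 ratio of 0.77 came to 0.15. Ccs, the copper chaperone of SOD1, was at 0.816, and the metal transporters Slc39a8 and Slc31a1 at 0.888 and 0.773. Of 9 genes for selenoprotein synthesis and selenium supply, Pstk was higher at 1.62 (1.43 to 1.85), and Selenop, the abundant selenium carrier, was lower at 0.666 (0.660 to 0.673), right at the 1.5-fold size, while Sepsecs was at 1.17.

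Most regulators of these genes did not meet the rule. Nfe2l2, which encodes NRF2, was read 10631 and 11405 times, with a ratio between 0.974 and 1.03. Of 11 regulators, 4 were lower, none was higher and 7 met neither direction, with a median log2 ratio of -0.43, against 19.1% lower among all genes. This list, too, was chosen with earlier results of these data known. The 4 were Foxo1 at 0.409 (0.393 to 0.426) and Foxo3 at 0.482 (0.465 to 0.499), transcription factors known to drive Sod2 and Cat, and the NF-kappaB subunit genes Nfkb1 at 0.560 (0.542 to 0.578) and Rela at 0.639 (0.616 to 0.662). With the length trend removed Nfkb1, a long gene, came to a log2 ratio of -0.56 from -0.84, just under the 1.5-fold size, so that 3 were lower. Mafg, a small MAF protein that pairs with NRF2, had a ratio of 1.17 (1.12 to 1.23). These are transcript levels, and NRF2 is known to be set mainly by the stability of its protein.

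**Figure D5:**
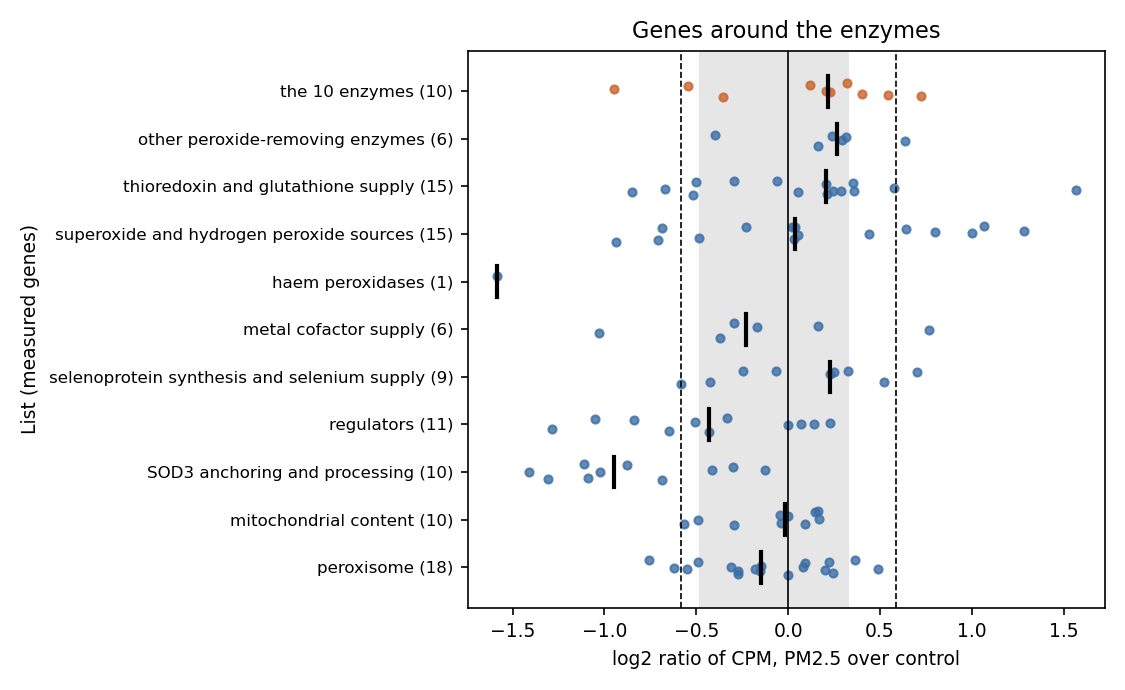
The log2 ratio of CPM, PM2.5 over control, for each measured gene of the 10 enzymes (orange) and of the lists around them (blue, number of genes in brackets), with list medians as black bars, the middle 50% of all measured genes in grey and 1.5-fold as dashed lines. The SOD3 anchoring list has its median at -0.95, and the medians of the enzymes and of the other peroxide removers lie at 0.22 and 0.27, or at 0.20 and -0.02 with the length trend removed.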

How the data were processed

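Lung messenger RNA of 1 control and 1 PM2.5 library was analysed. Per the labels' protocols, TRIzol RNA was selected for polyadenylated mRNA and made into stranded libraries with a KAPA kit, read as pairs of 125 bp. The deposited files hold raw counts per Ensembl gene, made, per the submitters' processing notes, with TopHat2 2.1.1 and HTSeq 0.6.0 on mm10. Which annotation release was used, and whether strand was counted, is not given in the sources used here. Symbols, positions and exons came from GENCODE M21 on GRCm38, the assembly called mm10.

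Libraries were scaled with TMM in edgeR 4.0.16 (factors 0.923 and 1.08). The interval of a ratio is the exact 95% Clopper-Pearson interval of the PM2.5 share of both counts. That of a ratio between 2 genes is a normal one on the log scale, and that of a share is Clopper-Pearson. Reads are not independent molecules. TPM used the union of exons. The length trend is a lowess fit. Copies were pseudogenes aligned over at least 250 nt at 85% identity or more (BLAST 2.17.0), and the retrocopy Prdx6b where it met the same limits.

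The members and lists were chosen with earlier results of these data known. Named were all members and, in each pathway list, up to 4 genes past 1.5-fold by the bound nearest to 1 and the 2 most abundant. In each marker list the rule takes the most abundant gene and that of the largest ratio, and here mostly list counts are given. A few genes picked by this rule are not reported here. Other named genes, such as Prdx3, Cybb, Gclc and Ccs, were taken for their function after their values were seen. No gene of similar pattern is named, since 2 libraries give 1 ratio per gene. The lists not shown with a result had these counts: alveolar macrophage 1 higher and 1 lower of 8, alveolar type 1 none higher and 3 lower of 8, ciliated 3 higher and none lower of 8, and skeletal muscle 3 higher and none lower of 4 measured. The ratio and call steps were tested on simulated counts. Python 3.11.15 and R 4.3.3 were used.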

Additional observations from a re-analysis of the deposited data

How the results depend on the processing

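No paired analysis was possible because each group has 1 library, and for the same reason no library could be left out. Over 7 alternatives (4 scalings, thinning of the deeper library, removal of the length trend, and counts of annotated copies added), the 10 member log2 ratios gave 70 values. None changed sign, 43 stayed within the counting interval and 27 moved beyond it. Library totals raised all log2 ratios by 0.23 and the upper quartile by 0.138. The share of calls that were higher, over all genes, was 43.8% in the analysis given, 70.3% for library totals and 59.5% for upper-quartile scaling. The number of members higher was 3 with library totals (Prdx1, Gpx2 and Gpx3), 2 with the upper quartile (Gpx2 and Gpx3) and 0 at 2-fold, against 23.6% and 19.4% of all genes higher under those scalings. The number lower was 2 with the length trend removed (Sod3 and Cat), against 16.7% of all genes, and 0 at 2-fold. The median log2 ratio of the members was 0.45 under total-count scaling and 0.35 under upper-quartile scaling. The share of Gpx3 in its family was 2.12 percentage points higher in the PM2.5 library by raw counts and 2.55 per length. The difference of the Sod3 share between the libraries kept within its counting error with raw counts, the longest transcript and added copies. Both length measures gave Sod1 the same 3970 nt, so a shorter Sod1 length was not tried. The difference of the extracellular and cytosolic medians cannot move with scaling, and it was -0.52 with the length trend removed. In alternatives chosen after seeing the data, the pathway lists had 15 genes higher and 13 lower with library totals, against 9 and 21 in the analysis given. Over all measured genes, 23.6% were higher and 9.96% lower with library totals, against 14.9% and 19.1%, so all genes moved the same way. Depth did not limit the members, the lowest being Gpx2 with 953 counts.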
